A study of Mus musculus with 12 samples.

Results

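The response of mouse cardiac fibroblasts to MCB-613-10-1 after 4 h was read from 6 of the 12 RNA-seq libraries of the series. The labels place 3 of them in the vehicle group (ethanol) and 3 in the group given 6 µM of the compound, and these labels alone chose the members. Per the labels, the cells were primary cells of hearts of the mouse strain C57BL/6, with no other allele named, grown in medium with serum. The other 6 libraries, 3 vehicle and 3 treated, were harvested at 24 h and were used here only to follow the genes that changed at 4 h. The labels do not say whether replicates came from separate animals or cultures, so the p-values measure only the spread between these libraries, which may be technical.

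Fibroblasts make the collagen and much of the other matrix of the heart, and they multiply and turn into contractile myofibroblasts after injury. MCB-613-10-1 is a derivative of MCB-613, a stimulator of steroid receptor coactivators, and the series asks through which signals it acts on these cells against fibrosis. A few hours after a stimulus, a cell's RNA pool mainly shows changes in transcripts that turn over fast. Genes of transcription factors, of feedback inhibitors of growth factor signaling and of secreted signals are typical of this class.

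The libraries held 26869195 to 31596784 counts. Vehicle replicate 1 stood apart from the rest, with a mean correlation of 0.986 with its own group against 0.989 for the other vehicle libraries, and ribosomal RNA took 0.543% to 0.900% of counts in vehicle and 0.949% to 1.10% in treated libraries. Markers of fibroblasts summed to 3303 to 3724 FPKM in vehicle and 3359 to 3855 FPKM in treated libraries (14 of 14 tested, 1 called lower). Those of cardiomyocytes (4 of 13 tested) summed to at most 4.29 FPKM in any library. Those of endothelium (11 of 12) summed to 17.7 to 20.2 FPKM in vehicle and 15.2 to 16.3 FPKM in treated libraries, with Ptprb called lower. Leukocyte markers (15 of 16) summed to 71.1 to 79.8 FPKM in vehicle and 50.5 to 65.3 FPKM in treated libraries, with Cd3e at 0 and Lyz2 called lower. The call of Lyz2 ended in 5 of 15 alternative fits (adjusted p from 0.0552 to 0.0813), among them those without vehicle replicate 3 and treated replicates 2 and 3. Sums ran from 40.1 to 54.3 FPKM for pericytes and smooth muscle, from 46.4 to 57.0 FPKM for epicardium and from 1.86 to 3.22 FPKM for Schwann cells, with 0 members called by edgeR (1, 2 and 0 at an unadjusted p under 0.05). Cardiomyocyte markers also had 0 calls, and DESeq2 called 1 marker in these 4 lists, the epicardial Lrrn4, as lower. The part of these shifts in the results below was not tested.

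Of 15336 genes tested with edgeR's quasi-likelihood test, 529 were higher and 569 lower after 4 h of the compound, which is 3.45% and 3.71% of the genes tested and 7.16% in all. A gene was called at a Benjamini-Hochberg adjusted p under 0.05. Most of the changes were small: 119 of the genes called higher and 81 of those called lower changed by at least 1 log2 unit. In all 1098 genes called, the CPM values of the groups (counts scaled to library size) did not overlap, which was also so in 29.7% of all genes tested. Genes called higher made up 48.2% of the calls, and 34.5% when libraries were scaled by their totals alone. The number of calls depended on single libraries. It was 1760 without vehicle replicate 1 (11.2% of genes tested), 672 without vehicle replicate 3, and 634, 476 and 443 without treated replicate 1, 2 or 3.

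**Figure D1:**
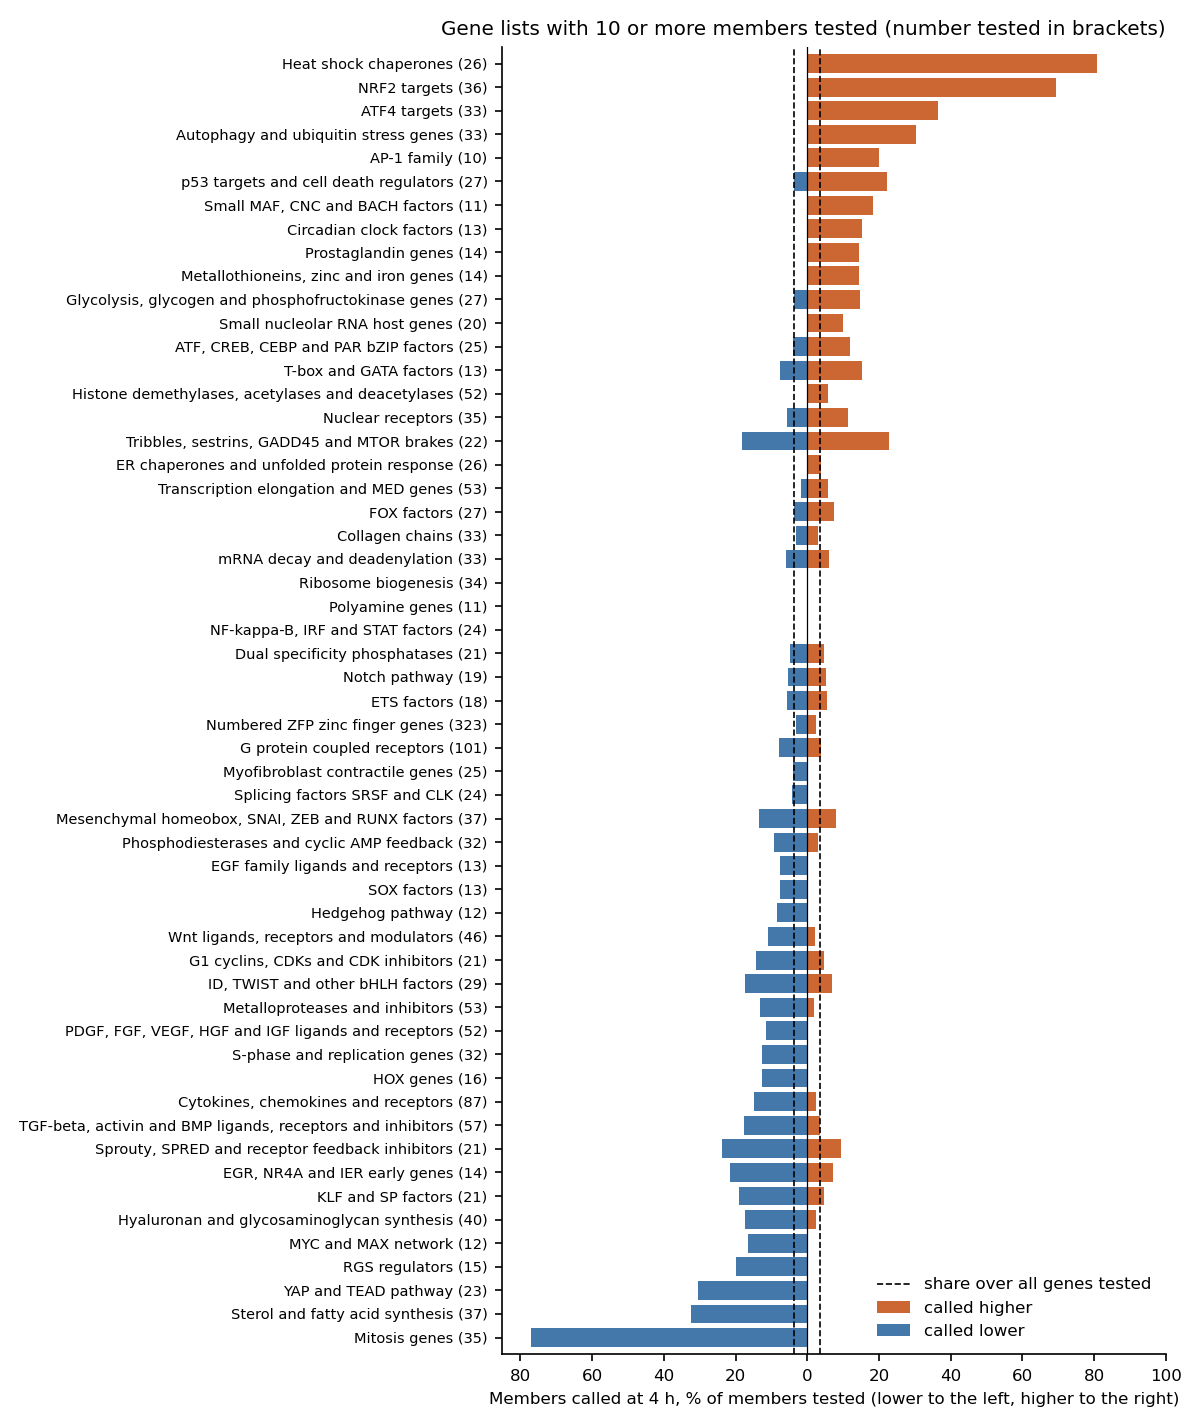
Share of the members of each gene list that was called higher (to the right) or lower (to the left) at 4 h, in percent of the members tested, for the lists with 10 or more members tested that are reported here. Dashed lines mark the share over all genes tested, 3.45% higher and 3.71% lower; the longest bars are those of heat shock chaperones, NRF2 targets and mitosis genes.

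The strongest rises were in genes that protect proteins and thiols. NRF2 is a transcription factor that is released from its inhibitor KEAP1 when thiols are attacked, and HSF1 switches on chaperone genes when proteins unfold. Of 36 NRF2 targets tested 25 rose and 0 fell (median log2 fold change 0.64), of 26 heat shock chaperones 21 rose and 0 fell (0.84), and the median over all genes was -0.01. With 1 library left out these counts ran from 20 to 27 and from 20 to 23. The shares higher were 69.4% and 80.8%, against 3.45% of all genes tested. Srxn1 (sulfiredoxin, ENSMUSG00000032802, GRCm39 chromosome 2, 151947436 to 151953296), which repairs oxidized peroxiredoxins, had 231, 222 and 209.5 CPM in the vehicle libraries and 1330.5, 1129.8 and 1336 CPM in the treated libraries. Osgin1, an NRF2-regulated gene linked to growth arrest (ENSMUSG00000074063, GRCm39 chromosome 8, 120160863 to 120172995), had 13.4, 22.8 and 22.9 CPM in vehicle and 140.3, 155 and 151 CPM with the compound. The groups were far apart in both genes, and vehicle replicate 1 was the lowest library of Osgin1. Slc7a11, the cystine importer that feeds glutathione synthesis, went from 77.1, 54.9 and 53.1 CPM to 346, 309 and 329 CPM (log2 fold change 2.41, SE 0.14, adjusted p = 1.66e-06).

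Promoter windows of 4 of these genes show the letters that NRF2 and HSF1 are known to bind. The windows are those of RefSeq on GRCm38.p6, another build than that of the files, from 250 bases before to 50 bases after the start of the gene. Capitals mark TGACNNNGC or TGANTCAGC on either strand, the antioxidant response element that NRF2 binds, in the first 3 windows. In the last they mark 3 units of the heat shock element, GAA and TTC in turn and 2 bases apart, on either strand.
Osgin1 (chr8:119436897-119437196, plus strand): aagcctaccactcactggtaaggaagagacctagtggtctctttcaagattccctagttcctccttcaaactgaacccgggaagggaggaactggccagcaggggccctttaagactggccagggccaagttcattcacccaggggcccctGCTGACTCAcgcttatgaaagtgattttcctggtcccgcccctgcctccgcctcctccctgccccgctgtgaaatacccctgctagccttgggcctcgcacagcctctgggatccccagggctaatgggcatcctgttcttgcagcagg
Srxn1 (chr2:152105274-152105573, plus strand): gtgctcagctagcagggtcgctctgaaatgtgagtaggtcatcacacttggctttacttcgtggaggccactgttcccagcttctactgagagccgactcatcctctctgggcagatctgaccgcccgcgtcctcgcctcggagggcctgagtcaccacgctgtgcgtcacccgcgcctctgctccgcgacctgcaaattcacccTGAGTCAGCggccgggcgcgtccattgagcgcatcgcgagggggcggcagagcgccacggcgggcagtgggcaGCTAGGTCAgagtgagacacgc
Gclm (chr3:122245307-122245606, plus strand): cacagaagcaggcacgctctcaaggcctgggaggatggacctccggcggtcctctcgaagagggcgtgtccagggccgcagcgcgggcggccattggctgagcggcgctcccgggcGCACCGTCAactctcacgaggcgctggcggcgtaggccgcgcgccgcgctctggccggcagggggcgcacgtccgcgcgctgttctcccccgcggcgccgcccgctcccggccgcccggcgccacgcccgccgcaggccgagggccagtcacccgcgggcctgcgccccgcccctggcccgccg
Hsph1 (chr5:149636287-149636586, minus strand): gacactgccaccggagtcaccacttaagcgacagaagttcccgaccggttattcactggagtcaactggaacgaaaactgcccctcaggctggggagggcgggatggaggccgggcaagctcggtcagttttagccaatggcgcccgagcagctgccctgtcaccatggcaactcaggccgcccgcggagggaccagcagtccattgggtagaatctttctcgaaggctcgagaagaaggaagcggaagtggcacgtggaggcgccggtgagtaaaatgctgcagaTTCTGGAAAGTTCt
The match of Osgin1 began 99 bases before the start and that of Gclm 134 bases before the start, while Srxn1 held 2 matches, the first 45 bases before the start. In Hsph1 the match began 36 bases after the start. The antioxidant letters stood in 13.0% and the heat shock letters in 0.603% of the 32851 windows in the table, and a match is a description, not a site. The search letters and the windows shown were chosen with the results known. Windows were at hand for 18 of the 25 NRF2 targets called and 16 of the 21 chaperones, too few for a share over either list, so that check is void.

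The genes behind these windows moved by a wide margin. Hsph1, a partner chaperone of HSP70, had 127, 110.3 and 108 CPM in vehicle and 510.3, 531 and 495 CPM in treated libraries, and Gclm, the modifier subunit of glutamate-cysteine ligase, had 149.7, 138 and 131 CPM and 559, 464 and 523 CPM. No library of one group overlapped with the other. The HSF genes themselves were not called (0 of 3 tested with edgeR), and Hsf1 stood at 0.18 on the log2 scale (adjusted p = 0.357). Hsf2 and Hsf4 had an unadjusted p under 0.05, both upward, and Hsf2 was called higher by DESeq2 and by edgeR without vehicle replicate 1. Hspa1a and Hspa1b, the inducible HSP70 genes, rose most of all protein-coding genes with a mean FPKM of at least 1 (log2 fold changes 5.43 and 4.89), but they are near-identical copies and the split of their reads is uncertain.

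**Figure D2:**
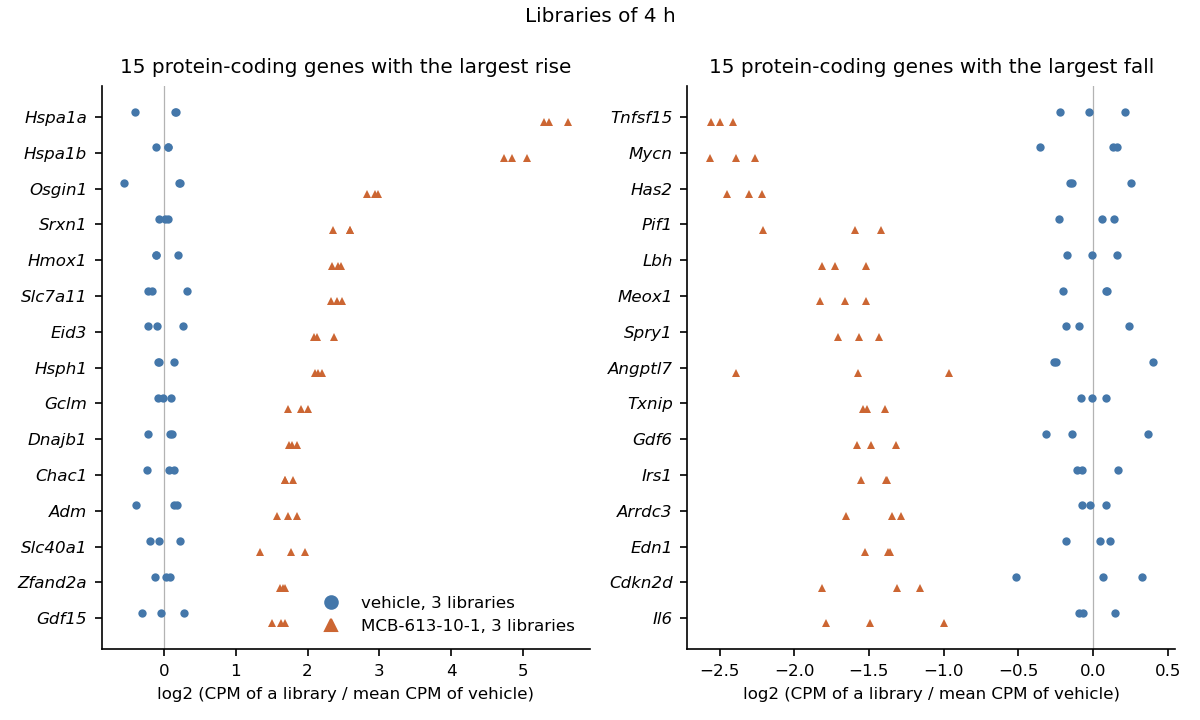
Protein-coding genes called at 4 h, the 15 that rose most (left) and the 15 that fell most (right) with a mean FPKM of at least 1 in the higher group; each point is 1 library, as log2 of its CPM over the mean CPM of the 3 vehicle libraries. Circles (vehicle) and triangles (MCB-613-10-1) do not overlap in any of the 30 genes.

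A second group of genes that rose serves protein disposal. Of 33 autophagy and ubiquitin stress genes 10 rose and 0 fell, 4 without treated replicate 3 and 14 without vehicle replicate 1. The share higher was 30.3%, against 3.45% of all genes tested. Zfand2a (AIRAP, ENSMUSG00000053581, GRCm39 chromosome 5, 139456966 to 139470304), a proteasome adaptor induced by arsenite and heat, had 90.4, 86.6 and 78.0 CPM in vehicle and 273, 268 and 260.5 CPM in treated libraries. Its relative Zfand5 had 76.2, 77.3 and 76.2 CPM and 158, 149 and 151 CPM, with little spread within either group (1.00, SE 0.08). Sqstm1, which encodes the autophagy receptor p62 and is also counted among the NRF2 targets, rose 1.87-fold. Tfe3, a factor that switches on lysosome and autophagy genes, rose by 0.52 on the log2 scale (SE 0.09, adjusted p = 0.00479). Its relative Tfec, named after its values were seen, had 5.07, 5.04 and 6.33 CPM in vehicle and 16.7, 14.3 and 14.1 CPM in treated libraries (1.46, SE 0.14).

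Genes of the ATF4 pathway, which adapts amino acid supply under stress, had started to rise. Of 33 tested, 12 rose and 0 fell, 8 without treated replicate 2 and 23 without vehicle replicate 1. That is 36.4% higher, against 3.45% of all genes tested. Trib3, a pseudokinase that restrains AKT and ATF4, had 30.4, 39.8 and 38.1 CPM in vehicle and 79.5, 86.4 and 88.8 CPM in treated libraries. Sesn2, which holds back MTORC1 when leucine is short, rose by 0.96 (SE 0.08) and Ddit4, another MTORC1 inhibitor, by 1.20 (SE 0.14). Atf3, a stress-induced bZIP factor, rose 1.56-fold at 4 h, with a log2 fold change of 0.64 that reached 5.09 at 24 h.

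Transcription factor genes moved both ways, with 48 higher and 59 lower among the 1057 tested genes for which the deposited table names a transcription factor family (10.1%), against 7.51% of the other protein-coding genes, a difference that was not tested. Lists that hold classical immediate early genes had 20% (AP-1 family) and 28.6% (EGR, NR4A and IER genes) called, against 7.16% of all genes. These differences were not tested. In the AP-1 family 2 of 10 tested rose, Jdp2 (0.81) and Jun (0.40), and none fell; without treated replicate 2 neither was called. Fosl1, a FOS relative, had 21.3, 51.5 and 42.3 CPM in vehicle and 71.3, 91.1 and 81.1 CPM in treated libraries, the largest difference in the family (1.08), and was not called (adjusted p = 0.113). It was called higher without vehicle replicate 1, its lowest library (0.79, adjusted p = 5.07e-04, 3 calls in the family), by DESeq2 (0.0396) and when all 12 libraries shared 1 fit (0.0304). Fos had 9.09, 11.7 and 12.6 CPM in vehicle and 8.28, 13.0 and 10.1 CPM in treated libraries (adjusted p = 0.82), with overlapping groups. Egr1, an early growth response factor, had 631, 777 and 719.8 CPM and 829, 1048 and 941 CPM (0.41, adjusted p = 0.0399). The call of Egr1 ended in 6 of 15 alternatives (adjusted p from 0.0579 to 0.186), among them those without vehicle replicate 3 and treated replicates 2 and 3, and that of Jun ended in 6 of 15 alternatives (adjusted p from 0.0549 to 0.173), among them those without vehicle replicate 3 and treated replicates 2 and 3. The related Egr3 fell, from 27.8, 30.2 and 34.1 CPM to 18.2, 20.1 and 21.2 CPM (-0.63, SE 0.11), as did Nr4a1 and Ier5l, so that of 14 EGR, NR4A and IER genes 3 fell and 1 rose (1 and 0 without vehicle replicate 3, 6 and 1 without vehicle replicate 1). The calls of Nr4a1 and Ier5l each ended in 7 of 15 alternatives, among them those without any 1 of the treated replicates (adjusted p up to 0.164 and 0.105). Of the 24 NF-kappa-B, IRF and STAT genes and their inhibitors 0 were called by edgeR or DESeq2, and 3 had an unadjusted p under 0.05 in edgeR (Nfkbiz, Tnfaip3 and Stat5b, all downward). Without vehicle replicate 1 there was 1 call, Irf1, downward.

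Factors that rose included partners of NRF2, some clock repressors and lipid sensors. Mafg, a small MAF protein that pairs with NRF2 on DNA, had 111, 116 and 111 CPM in vehicle and 181, 192 and 186 CPM in treated libraries (0.73, SE 0.08, adjusted p = 1.89e-04). Keap1 stood at 0.43 (adjusted p = 0.0339), and its call ended in 6 of 15 alternatives (adjusted p from 0.0532 to 0.173), among them those without vehicle replicate 3 and treated replicates 2 and 3. Nfe2l2, which encodes NRF2 itself, had 191, 168 and 164 CPM and 200.3, 184 and 183 CPM, with overlapping groups and no call (0.12, adjusted p = 0.472). Of 13 circadian clock genes 2 rose, Ciart and Cry2, which both repress transcription by CLOCK and BMAL1, and no other member was called. This is 15.4% higher, against 3.45% of all genes. Ciart (ENSMUSG00000038550, GRCm39 chromosome 3, 95785815 to 95789563) went from 10.4, 12.4 and 12.2 CPM to 23.7, 25.9 and 24.5 CPM and Cry2 from 25.9, 28.9 and 27.2 CPM to 45.6, 45.9 and 47.3 CPM. In both genes the 3 treated libraries lay close together and well above vehicle. Bhlhe41, another repressor of the clock that was counted in the list of bHLH factors, rose by 0.63 (SE 0.09).

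Among nuclear receptors 4 of 35 rose and 2 fell (1 call without treated replicate 2). In this list 17.1% were called, against 7.16% of all genes. Ppard, a receptor for fatty acids, went from 36.3, 40.1 and 36.9 CPM to 56.2, 63.2 and 61.8 CPM (0.68, SE 0.09), and this call held in all 15 alternatives. Rxra, the shared partner of many such receptors, stood at 0.43, and its call ended in 2 of 15 alternatives (adjusted p from 0.0606 to 0.0834), among them those without treated replicates 2 and 3. Klf15, a metabolic Krüppel-like factor of heart and muscle, rose from 3.62, 4.09 and 3.42 CPM to 6.403, 7.08 and 6.50 CPM. Zfp623, a zinc finger gene, showed the largest rise among the 323 numbered zinc finger genes, 2.20-fold, in a family with 8 higher and 10 lower (4 and 3 without treated replicate 2, 15 and 13 without vehicle replicate 1). In this family 5.57% were called, less than the 7.16% of all genes tested. The genes of Gata4, a cardiac factor also made by heart fibroblasts, and Gata3 rose by 0.52 and 0.67. The call of Gata4 ended in 2 of 15 alternatives (adjusted p from 0.063 to 0.0652), among them those without treated replicates 2 and 3, and that of Gata3 ended in 3 of 15 alternatives (adjusted p from 0.0536 to 0.0782), among them those without vehicle replicate 3 and treated replicates 2 and 3.

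Factors of growth, of mesenchymal identity and of BMP signaling were among those that fell. Mycn (N-MYC, ENSMUSG00000037169, GRCm39 chromosome 12, 12986094 to 12991915) had 12.6, 17.7 and 18.0 CPM in vehicle and 3.08, 3.35 and 2.71 CPM in treated libraries, 5.27-fold lower (log2 fold change -2.40, SE 0.17, adjusted p = 1.27e-05). The much more abundant Myc had 282, 313 and 288 CPM and 234, 278 and 249 CPM and was not called (-0.21, adjusted p = 0.181). Meox1 (ENSMUSG00000001493, GRCm39 chromosome 11, 101768336 to 101785200), a homeobox factor known to drive fibroblast activation in the failing heart, went from 46.3, 56.9 and 56.5 CPM to 16.9, 18.6 and 14.97 CPM (-1.66, SE 0.12). Lbh, a Wnt-responsive coactivator of limb and heart development, went from 351, 311 and 393 CPM to 99.8, 106 and 122.8 CPM (-1.68, SE 0.11). In these 3 genes every treated library was less than the lowest vehicle library, and their calls held in all 15 alternatives.

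Id2 and Id3, inhibitors of bHLH factors that BMP signaling induces, fell by 1.11 and 0.91 on the log2 scale. Of the 29 ID, TWIST and other bHLH genes tested 5 fell and 2 rose (4 and 1 without vehicle replicate 2). The shares were 17.2% lower and 6.90% higher, against 3.71% and 3.45% of all genes. The other members that fell were Ahrr, Tcf21 and Twist1, and those that rose were Bhlhe41 and Ahr. The chondrogenic factor Sox9, with 77.1, 89.9 and 100.8 CPM in vehicle and 45.1, 51.4 and 47.8 CPM in treated libraries, was the single SOX gene of 13 that was called (3 without vehicle replicate 1). This share of 7.69% is near the 7.16% of all genes tested. The mesenchymal factors Osr1 and Prrx1 had log2 fold changes of -0.68 (SE 0.12) and -0.57 (SE 0.10). In their list of 37 homeobox, SNAI, ZEB and RUNX genes, which also holds Lbh and Meox1, 5 fell and 3 rose (4 and 0 without vehicle replicate 3). This is 13.5% lower and 8.11% higher, against 3.71% and 3.45% of all genes. The members that rose were Tshz1 (0.42), whose call ended in 7 of 15 alternatives, and the lowly expressed Msx2 (0.85) and Osr2 (0.88). Of 21 KLF and SP genes 4 fell, with Klf3 at -0.62 and Klf10, an early target of TGF-beta, at -0.59, and 1 rose (2 and 1 without treated replicate 1). Tcf21 and Tbx20, which mark heart fibroblasts, stood at -1.10 and -0.96. The call of Tcf21 ended without vehicle replicate 1 and without a low-count filter (adjusted p = 0.0664 and 0.0712), and that of Tbx20 ended without vehicle replicate 1 (0.0511).

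**Figure D3:**
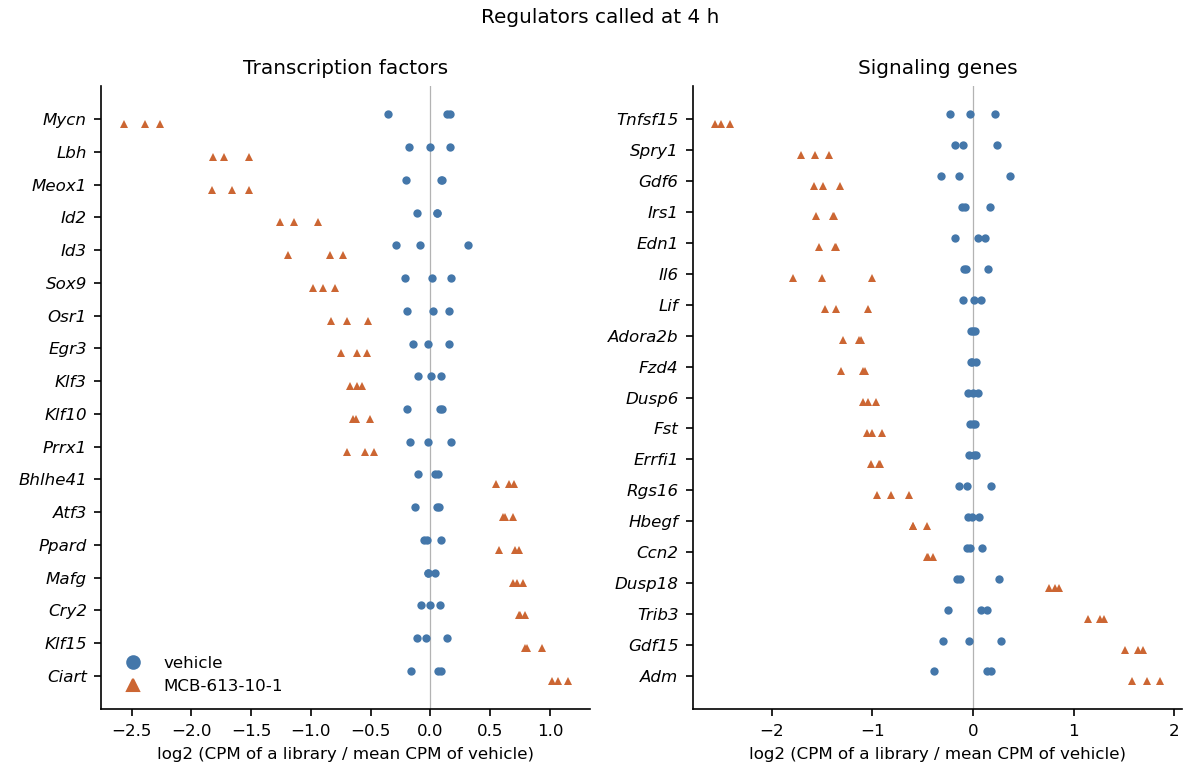
A selection of genes of transcription factors and their cofactors (left) and signaling genes (right) that were called at 4 h, ordered by log2 fold change; each point is 1 library, as log2 of its CPM over the mean CPM of the 3 vehicle libraries. On the left, Lbh, Ciart and Cry2 are genes for which the authors named no transcription factor family. Of the genes drawn, Mycn and Tnfsf15 have the lowest treated libraries, Ciart and Adm the highest, and circles and triangles do not overlap within a gene.

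Several feedback inhibitors of receptor tyrosine kinases fell. Growth factors switch on the ERK kinase cascade, and ERK in turn induces phosphatases and adaptor proteins that damp it. Of 21 Sprouty, SPRED and other receptor feedback genes 5 fell and 2 rose. The shares were 23.8% lower and 9.52% higher, against 3.71% and 3.45% of all genes. Spry1 (ENSMUSG00000037211, GRCm39 chromosome 3, 37694096 to 37698747), which blocks RAS activation, had 40.5, 38.1 and 51.2 CPM in vehicle and 13.2, 14.6 and 16.0 CPM in treated libraries (-1.56, SE 0.13, adjusted p = 3.08e-05). Errfi1 (MIG6), an inhibitor of the EGF receptor, went from 441, 425 and 447 CPM to 229.9, 216 and 230.1 CPM. The ERK phosphatase gene Dusp6 (ENSMUSG00000019960, GRCm39 chromosome 10, 99099093 to 99103351) went from 92.3, 89.0 and 86.5 CPM to 45.7, 41.9 and 43.4 CPM (-1.03, SE 0.08). Dusp6 and Errfi1 varied little within each group, and in all 3 genes the groups were apart. Spry2, Socs2 and Socs5 also fell (-0.59, -0.51 and -0.86), while Phlda1 rose (0.56) and Socs3 rose (0.65). The call of Socs3 ended in 3 of 15 alternatives (adjusted p from 0.0633 to 0.121), among them those without vehicle replicate 3 and treated replicates 2 and 3.

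Of 21 dual specificity phosphatases tested, Dusp6 fell and Dusp18 rose, from 22.6, 17.3 and 16.9 CPM to 33.3, 31.9 and 34.2 CPM (0.81). With 9.52% called, the list was near the 7.16% of all genes. Hbegf, a ligand of the EGF receptor, was the only called member of 13 in its family (7.69% against 7.16% of all genes, 2 calls without vehicle replicate 1). It went from 187, 192 and 201 CPM to 128, 141 and 128 CPM (-0.55). In a list of 52 genes of the PDGF, FGF, VEGF, HGF and IGF families, which also holds Bdnf, 6 fell and 0 rose, all of them ligands (3 calls without vehicle replicate 3, and 4 higher and 8 lower without vehicle replicate 1). The share lower was 11.5%, against 3.71% of all genes. The calls of Hgf, Igf1 and Fgf18 ended in 8, 6 and 4 of the alternatives. Fgf2, a mitogen of fibroblasts, went from 574, 428 and 452 CPM to 324, 296 and 288 CPM and Fgf7 from 23.3, 18.8 and 19.4 CPM to 10.7, 10.9 and 10.9 CPM. Bdnf, a neurotrophin, had 179.8, 170.0 and 169 CPM in vehicle and 99.3, 97.5 and 99.8 CPM in treated libraries, with the treated libraries within 3 CPM of each other. Irs1, the adaptor that carries insulin and IGF1 signals, went from 101, 98.9 and 119 CPM to 36.2, 40.9 and 40.7 CPM (-1.44, SE 0.10, adjusted p = 9.97e-06).

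Most cytokine and chemokine genes that were called were lower. Of 87 ligands and receptors 13 were lower and 2 higher (5 and 0 without treated replicate 2). The shares were 14.9% lower and 2.30% higher, against 3.71% and 3.45% of all genes. Tnfsf15 (TL1A, ENSMUSG00000050395, GRCm39 chromosome 4, 63642840 to 63663350), a TNF family cytokine, had 40.8, 34.5 and 30.1 CPM in vehicle and 5.97, 6.21 and 6.61 CPM in treated libraries, 5.61-fold lower. Lif, an IL6 family cytokine, had 315, 357 and 341 CPM and 122, 164 and 131 CPM, and Il6 itself had 22.9, 22.6 and 26.6 CPM and 12.05, 6.97 and 8.54 CPM. The treated libraries of Il6 differed among themselves by more than its vehicle libraries did, but all were lower than vehicle. Tnfrsf11b, the decoy receptor osteoprotegerin, and the chemokine gene Cxcl12 had log2 fold changes of -0.86 and -0.58. Ccl7 stood at -0.77 and Ccl2, the monocyte chemokine, at -0.60; the call of Ccl7 ended in 1 of 15 alternatives (adjusted p = 0.0586, without treated replicate 2), and that of Ccl2 ended in 8 of 15 alternatives (adjusted p from 0.0672 to 0.295), among them those without vehicle replicates 1 and 2 and treated replicates 1, 2 and 3.

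Genes of a pair of vasoactive peptides moved in opposite directions. Edn1 (ENSMUSG00000021367, GRCm39 chromosome 13, 42454952 to 42461466), which encodes the vasoconstrictor endothelin 1, went from 39.6, 33.7 and 41.5 CPM to 14.9, 14.8 and 13.3 CPM (-1.42, SE 0.11, adjusted p = 2.50e-05). Adm (ENSMUSG00000030790, GRCm39 chromosome 7, 110226868 to 110229027), which encodes the vasodilator adrenomedullin, went from 38.4, 55.5 and 57.0 CPM to 167, 150.3 and 182 CPM (1.73, SE 0.14, adjusted p = 3.70e-05). Of 101 G protein coupled receptors 4 rose and 8 fell (8 higher and 9 lower without vehicle replicate 1, 2 and 5 without treated replicate 3). The shares were 3.96% higher and 7.92% lower, against 3.45% and 3.71% of all genes. Adora2b, an adenosine receptor that signals through cyclic AMP, went from 8.72, 8.43 and 8.55 CPM to 3.51, 3.92 and 3.97 CPM. It is low in level, yet its groups did not overlap. Ptger4, a prostaglandin E2 receptor gene, rose by 0.62 (SE 0.10), and S1pr1, a sphingosine 1-phosphate receptor gene, stood at -0.89 (SE 0.12).

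Genes of the TGF-beta, activin and BMP families were lower in 10 of 57 and higher in 2 (3 and 1 without treated replicate 1). That is 17.5% lower and 3.51% higher, against 3.71% and 3.45% of all genes. Gdf6, a BMP ligand, had 168, 191 and 270.4 CPM in vehicle and 70.1, 74.9 and 84.1 CPM in treated libraries. Fst, follistatin, which traps activin, went from 76.7, 74.2 and 75.7 CPM to 37.8, 40.4 and 36.5 CPM (-0.98, SE 0.08). Gdf15, a distant member of the family and a stress hormone, rose instead, from 40.6, 60.6 and 48.8 CPM to 142, 161 and 155 CPM. The ligand gene Tgfb3 and the signal transducer Smad3 stood at -0.51 and -0.43; the call of Tgfb3 ended in 6 of 15 alternatives (adjusted p from 0.0567 to 0.0878), among them those without vehicle replicate 3 and treated replicates 1, 2 and 3, and that of Smad3 ended in 4 of 15 alternatives (adjusted p from 0.0525 to 0.0824), among them those without vehicle replicate 3 and treated replicates 1, 2 and 3. Genes of the pathway of YAP and TEAD, factors that respond to stretch and adhesion, included 7 of 23 that fell and 0 that rose (4 without treated replicate 1, 9 lower and 1 higher without vehicle replicate 1). This list holds regulators such as Lats2 as well as targets, and 30.4% of it was lower, against 3.71% of all genes. Amotl2, a target that restrains YAP, went from 622, 632 and 631 CPM to 374, 454 and 417 CPM and Nuak2, a kinase gene of the same group, from 46.8, 51.2 and 51.2 CPM to 28.0, 35.6 and 30.8 CPM. Ccn2 (CTGF), a matrix protein of fibrosis, had a log2 fold change of -0.43, and its call ended in 1 of 15 alternatives (adjusted p = 0.0592, without treated replicate 3).

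Among Wnt genes 5 of 46 fell and 1 rose (2 and 0 without treated replicate 3). The shares were 10.9% lower and 2.17% higher, against 3.71% and 3.45% of all genes. Fzd4, a Wnt receptor, went from 30.7, 30.4 and 31.4 CPM to 14.5, 12.4 and 14.7 CPM (-1.15, SE 0.11), and Ror1, a receptor for Wnt5a, from 56.4, 44.5 and 54.1 CPM to 28.2, 29.9 and 28.2 CPM. Of 15 RGS genes, which shorten G protein signals, 3 fell and 0 rose (20% lower, against 3.71% of all genes). Pde3a, a phosphodiesterase gene, had a log2 fold change of -0.67 (SE 0.08).

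Genes that couple glucose and growth signals also changed. Txnip (ENSMUSG00000038393, GRCm39 chromosome 3, 96465273 to 96469199), which binds thioredoxin and limits glucose uptake, had 197, 184 and 175 CPM in vehicle and 64.9, 70.6 and 63.7 CPM in treated libraries (-1.48, SE 0.09, adjusted p = 1.80e-06). Its relative Arrdc3, an arrestin-like adaptor, went from 7.42, 6.64 and 6.88 CPM to 2.86, 2.75 and 2.21 CPM. Slc2a1, the glucose transporter GLUT1, rose from 85.7, 85.7 and 80.1 CPM to 128, 141 and 139 CPM. All 3 calls held in all 15 alternatives. Trib2, a relative of Trib3, fell while Trib3 rose: it had 115, 105 and 120.5 CPM in vehicle and 42.3, 43.9 and 54.3 CPM in treated libraries (-1.28, SE 0.11).

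Death and arrest genes linked to p53 gave 6 higher and 1 lower of 27 (2 and 1 without treated replicate 3). The shares were 22.2% higher and 3.70% lower, against 3.45% and 3.71% of all genes. Mdm2, which degrades p53, had 380.5, 334 and 305 CPM in vehicle and 539.9, 505 and 499.7 CPM in treated libraries. Pmaip1 (NOXA), a killer protein, went from 22.4, 21.5 and 17.7 CPM to 32.6, 33.2 and 31.5 CPM, and Bcl2, a survival protein of the same family, from 13.3, 11.6 and 12.7 CPM to 7.81, 7.76 and 7.79 CPM. Among 52 histone demethylase, acetylase and deacetylase genes 3 rose and 0 fell (7 and 1 without vehicle replicate 1), which is 5.77% called against 7.16% of all genes. Kdm6b, which removes a repressive methyl mark of histone H3, stood at 0.72 (SE 0.13). Among 33 mRNA decay genes 2 rose and 2 fell (4 and 3 without vehicle replicate 1, 1 and 1 without treated replicate 2). In this list 12.1% were called, against 7.16% of all genes. Tob2, a recruiter of deadenylases, stood at 0.57 and Zfp36l1, which destroys AU-rich mRNAs, at -0.63.

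Mitosis genes were lower as a group, with 27 of 35 tested called lower, 0 higher and a median of -0.67, against 3.71% of all genes called lower and a median of -0.01. The count was 16 without treated replicate 2 and 30 without vehicle replicate 1. Fewer cells in mitosis and less RNA per cell cannot be told apart in these bulk samples. Kif2c, a kinesin that corrects chromosome attachment, had 18.0, 17.0 and 21.5 CPM in vehicle and 9.37, 7.12 and 8.43 CPM in treated libraries, and Kif23, a kinesin of cytokinesis, had 24.0, 20.9 and 31.8 CPM and 13.6, 10.7 and 14.1 CPM. Cdc25b, the phosphatase that starts mitosis by activating CDK1, went from 12.02, 9.42 and 14.0 CPM to 5.39, 5.99 and 5.86 CPM. Of 32 genes of S phase and replication 4 were called, all lower: Ccne1, Ccne2, E2f7 and E2f8 (0 without treated replicate 3). This share of 12.5% stands against 3.71% of all genes.

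Among the 27 mitosis genes called, 23 had a RefSeq promoter window, and 16 of these held TTTGAA on either strand, the letters of the cell cycle genes homology region through which such genes are repressed outside G2 and M. Counted over windows, of which a gene can have several, they stood in 17 of 25 (68.0%), and in 17.9% of all 32851 windows. The list was chosen with the results known, and this share is a description. Stretches of 60 bases on GRCm38.p6 around the match nearest the start, with TTTGAA or its reverse TTCAAA in capitals, are shown for the 6 of these genes with the largest fall.
Kif2c (chr4:117178843-117178902, minus strand): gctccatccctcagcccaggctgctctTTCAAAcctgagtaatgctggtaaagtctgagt
Kif23 (chr9:61946765-61946824, minus strand): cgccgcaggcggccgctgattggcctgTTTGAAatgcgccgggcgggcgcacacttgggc
Ccnf (chr17:24251391-24251450, minus strand): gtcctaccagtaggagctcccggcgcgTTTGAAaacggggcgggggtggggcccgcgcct
Plk1 (chr7:122159425-122159484, plus strand): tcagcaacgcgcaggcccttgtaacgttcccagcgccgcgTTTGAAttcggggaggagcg
Kif11 (chr19:37376336-37376395, plus strand): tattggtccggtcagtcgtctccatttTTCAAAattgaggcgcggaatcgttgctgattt
Cenpa (chr5:30666875-30666934, plus strand): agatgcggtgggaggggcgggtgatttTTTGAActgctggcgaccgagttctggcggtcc
The matches began 103 bases before the start in Kif2c and 14 bases before the start in Ccnf, and 30 bases after the start in Plk1 and 16 bases after the start in Cenpa. Log2 fold changes of the other 4 genes shown were -0.97 for Ccnf, which encodes cyclin F, -0.95 for the kinase gene Plk1, -0.92 for the spindle kinesin gene Kif11 and -0.89 for the centromere histone gene Cenpa. The call of Cenpa ended in 1 of 15 alternatives (adjusted p = 0.0556, without treated replicate 2).

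Genes of sterol synthesis and of a matrix polymer were among those that fell. Of 37 genes of sterol and fatty acid synthesis and export 12 fell and 0 rose (6 without treated replicate 3). The share lower was 32.4%, against 3.71% of all genes. Abca1, the cholesterol exporter, which LXR receptors induce, went from 111, 90.8 and 117 CPM to 44.8, 42.2 and 46.4 CPM (-1.26, SE 0.11), and Hmgcs1, the entry enzyme of the sterol pathway, went from 57.6, 54.1 and 48.6 CPM to 31.3, 32.5 and 34.7 CPM. Export and synthesis genes thus fell side by side. Has2 (ENSMUSG00000022367, GRCm39 chromosome 15, 56529023 to 56557935), which spins out hyaluronan, had 23.1, 17.6 and 17.4 CPM in vehicle and 4.16, 3.92 and 3.54 CPM in treated libraries (-2.32, SE 0.15, adjusted p = 5.99e-06). Among metalloproteases and their inhibitors 7 of 53 fell and 1 rose (4 and 0 without treated replicate 1). That is 13.2% lower and 1.89% higher, against 3.71% and 3.45% of all genes. Adamts5 and Adamts12, which cut proteoglycans and other matrix proteins, stood at -0.74 and -0.64. Of 33 collagen chains 1 was higher and 1 lower (0 without treated replicate 1), which is 6.06% called against 7.16% of all genes. In the list of 25 contractile myofibroblast genes Thbs1 was lower and no other member was called (4 lower without vehicle replicate 1). This is 4% called, less than the 7.16% of all genes. Thbs1, thrombospondin 1, an abundant activator of TGF-beta, went from 10759.8, 9862 and 9856 CPM to 5955, 7225 and 6305 CPM.

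Among the 1008 lncRNA genes tested 30 rose and 16 fell, 4.56% in all, against 7.16% of all genes tested. Malat1, a nuclear RNA of speckles, had 282, 331 and 261 CPM in vehicle and 469, 534 and 514 CPM in treated libraries (0.80, SE 0.10), and Neat1, the scaffold of paraspeckles, had 32.6, 39.1 and 33.2 CPM and 72.0, 68.5 and 52.7 CPM. The call of Neat1 ended in 1 of 15 alternatives, with all 12 libraries in the fit (adjusted p = 0.106). Rn7sk, the RNA that holds the elongation kinase P-TEFb inactive, went from 1.08, 1.53 and 2.44 CPM to 3.22, 5.27 and 4.93 CPM. Its call ended in 2 of 15 alternatives (adjusted p from 0.0582 to 0.0783), among them those without treated replicates 2 and 3. Over the libraries its CPM had the same order as the ribosomal RNA share of counts, and a link between them was not tested. Fgf2os, annotated antisense to Fgf2, had a log2 fold change of -1.11, and its call ended in 1 of 15 alternatives (adjusted p = 0.052, without treated replicate 1). Whether reads were counted by strand is not given in the sources used here, so the reads of the antisense partners cannot be told apart.

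Most genes called at 4 h were called in the same direction at 24 h. Of the 529 higher genes 480 were also higher at 24 h, and of the 569 lower genes 508 were also lower, at a time when 36.7% of genes tested were higher and 38% lower (74.7% in all). The difference between the responses, an interaction tested on all 12 libraries and called in 53.8% of genes, was called with the larger response at 24 h for 354 of these higher and 385 of these lower genes, and with the larger response at 4 h for 12 and 7. A gene was taken as called at 4 h alone when it was called at 4 h, was not called in the same direction at 24 h and had a called difference. These were 89 genes (0.58% of genes tested), 39 higher and 50 lower. Of the higher genes 18 were called lower at 24 h and 21 were not called, and of the lower genes 25 were called higher and 25 not called. Without vehicle replicate 1 the count was 150, and without treated replicate 1, 2 or 3 it was 56, 29 and 21.

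**Figure D4:**
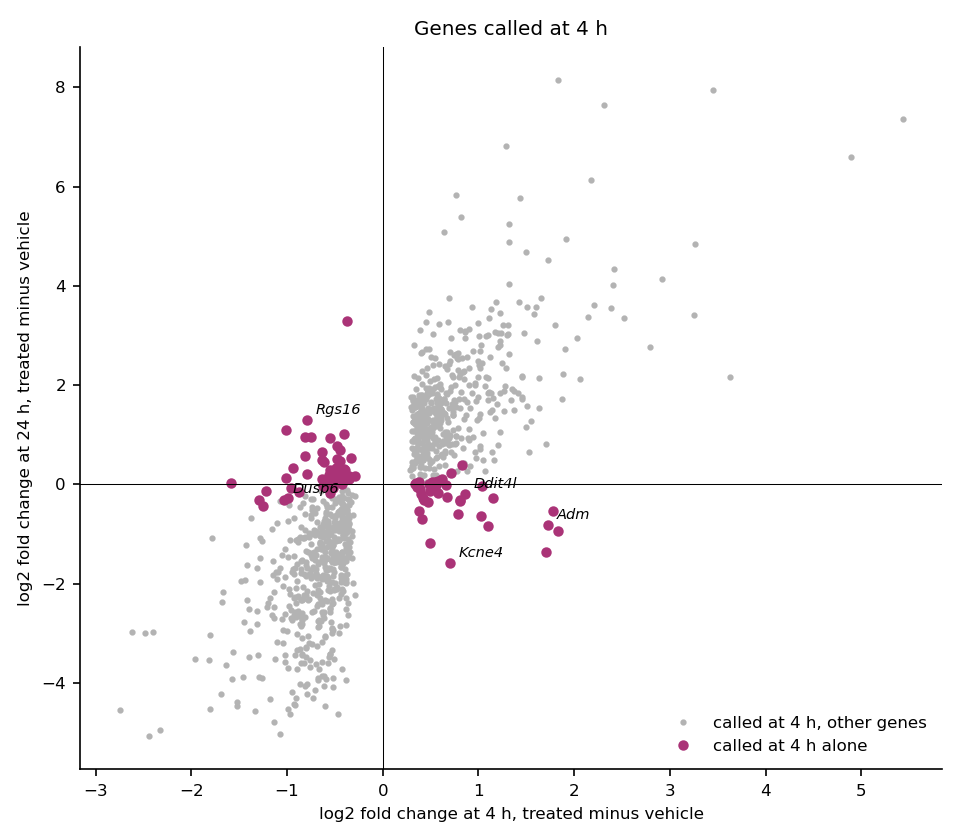
Log2 fold change at 24 h (vertical) against that at 4 h (horizontal) for genes called at 4 h and tested at both times; each point is 1 gene, and the 89 genes called at 4 h alone are drawn large. Most points have the same sign at both times, 480 of 529 higher genes and 508 of 569 lower genes being called the same way at 24 h; Adm lies in the lower right.

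Adm showed the largest early rise among the protein-coding genes called at 4 h alone. Its vehicle libraries had 151, 161 and 155 CPM at 24 h and its treated libraries 93.8, 97.2 and 72.9 CPM, so the order of the groups was reversed (24 h log2 fold change -0.82, difference -2.54, adjusted p = 2.28e-07). CPM values are scaled within a time, and levels are set across times here only as a description. Ptgir, the prostacyclin receptor gene, had 2.29, 3.50 and 4.04 CPM in vehicle and 6.08, 5.08 and 8.75 CPM in treated libraries at 4 h and -0.64 on the log2 scale at 24 h; its 4 h call ended in 5 of 15 alternatives (adjusted p from 0.0557 to 0.143), among them those without vehicle replicate 2 and treated replicates 1 and 3. Ddit4l, an MTORC1 inhibitor related to Ddit4, went from 12.5, 11.0 and 11.4 CPM to 22.6, 18.6 and 22.4 CPM at 4 h, whereas at 24 h the groups had 17.1, 15.04 and 16.1 CPM and 12.8, 16.7 and 12.5 CPM.

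Cytoskeletal and scaffold genes were among these early rises. Nes, the intermediate filament protein nestin, had 194, 286 and 269.7 CPM in vehicle and 394, 472 and 444 CPM in treated libraries at 4 h, and 150.5, 171 and 149 CPM and 127, 128 and 119.7 CPM at 24 h. Prag1, a pseudokinase scaffold, had 23.6, 27.9 and 28.2 CPM and 42.9, 50.2 and 44.0 CPM at 4 h and a log2 fold change of -0.60 at 24 h. Ksr1, a scaffold of the RAF and MEK kinases, had 11.7, 11.8 and 11.9 CPM and 18.6, 23.2 and 21.0 CPM at 4 h, with 0.39 at 24 h (adjusted p = 0.0509). The vehicle libraries of Ksr1 were nearly equal at 4 h, and its treated libraries were all higher.

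A few genes of growth factor signaling were among the early falls, although of the 7 receptor feedback genes called at 4 h only Errfi1 was called at 4 h alone. Spry1, for one, was lower still at 24 h (-3.37, difference -1.80, adjusted p = 7.94e-07), and Socs5 stayed lower (-1.05). Dusp6 and Errfi1 had log2 fold changes of -0.31 and -0.07 at 24 h (adjusted p = 0.0669 and 0.269), and the differences between the times were 0.73 and 0.90. In both genes the vehicle level itself was lower at 24 h, at 32.7, 37.5 and 31.6 CPM for Dusp6 and 164, 162 and 149.8 CPM for Errfi1. Shc4, an adaptor of receptor tyrosine kinases, had 15.3, 13.5 and 14.2 CPM in vehicle and 7.27, 7.83 and 7.29 CPM in treated libraries at 4 h, and 0.32 on the log2 scale at 24 h (adjusted p = 0.0814). Rgs16, a brake on G protein signals, had 128, 159.8 and 136 CPM and 80.6, 91.1 and 73.1 CPM at 4 h, but 39.7, 42.9 and 34.7 CPM and 99.7, 89.4 and 100 CPM at 24 h. Msmo1, a sterol demethylation enzyme, turned likewise, from -0.79 at 4 h to 0.22 at 24 h.

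**Figure D5:**
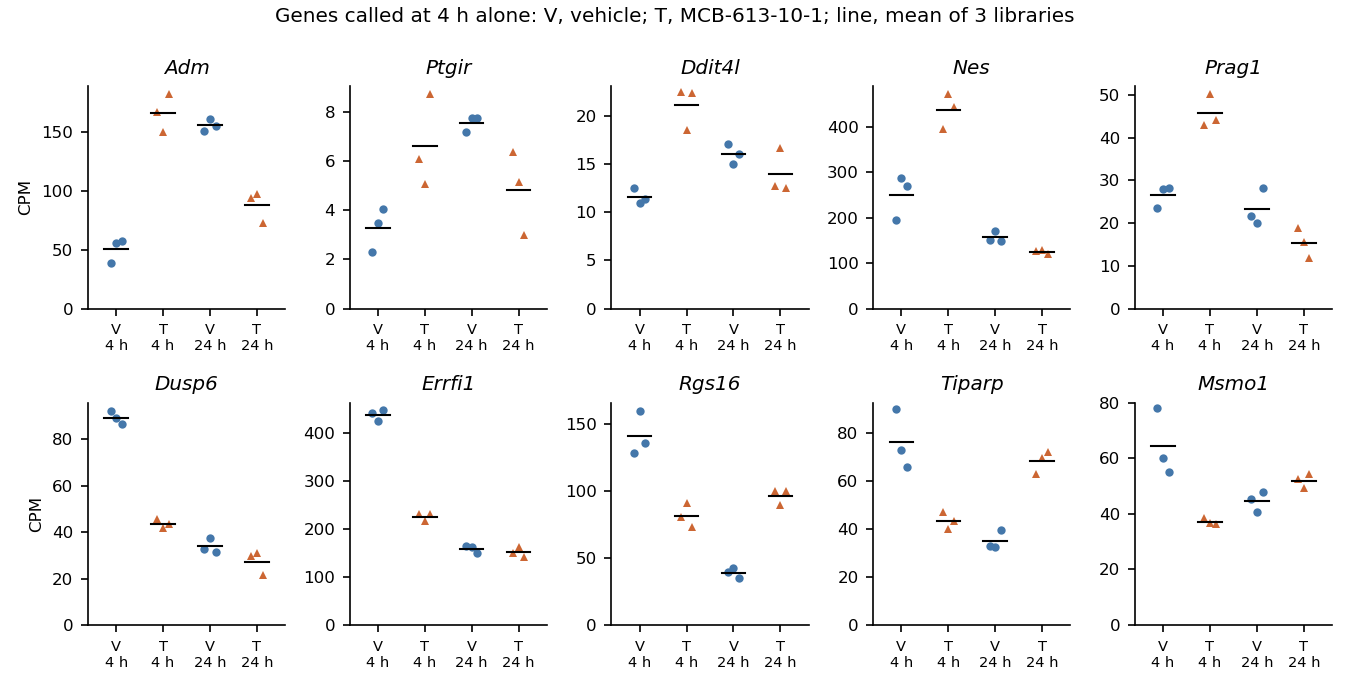
CPM of 10 genes called at 4 h alone in all 12 libraries, scaled within each time; circles are vehicle (V), triangles MCB-613-10-1 (T), and lines the mean of 3 libraries. The upper row shows genes higher at 4 h and the lower row genes lower at 4 h; for Adm, Ptgir, Nes, Prag1, Rgs16, Tiparp and Msmo1 the order of the groups at 24 h is the reverse of that at 4 h.

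A gene that restrains the aryl hydrocarbon receptor, a sensor of planar ligands, was also lower at 4 h alone. Tiparp, which modifies this receptor, had 90.1, 73.0 and 66.0 CPM in vehicle and 47.1, 40.1 and 43.5 CPM in treated libraries at 4 h (-0.81, SE 0.12), and 33.1, 32.6 and 39.9 CPM and 63.2, 69.8 and 72.2 CPM at 24 h. The next 4 genes were named after their values were seen. Ahrr, the repressor of the receptor, went from 8.44, 7.85 and 6.81 CPM to 2.82, 3.77 and 2.82 CPM at 4 h and was not called at 24 h (-0.32, adjusted p = 0.283). Cyp1b1, a cytochrome P450 that the receptor induces, went from 448, 361 and 438 CPM to 169, 187 and 186 CPM at 4 h and stayed lower at 24 h (-2.40). Ahr, the receptor gene itself, rose by 0.43 at 4 h, and its call ended in 8 of 15 alternatives (adjusted p from 0.0569 to 0.136), among them those without vehicle replicates 2 and 3 and treated replicates 1, 2 and 3. Cyp1a1, the best known target, was barely expressed, at most 1.19 CPM at 4 h, and was not called then (0.06, adjusted p = 0.931).

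Genes of the steroid receptor coactivators, the proteins that MCB-613 is known to stimulate, differed little at 4 h. Ncoa1 had 47.8, 45.8 and 41.0 CPM in vehicle and 48.4, 51.1 and 49.1 CPM in treated libraries, Ncoa2 66.5, 60.9 and 66.3 CPM and 62.8, 65.2 and 64.7 CPM, and Ncoa3 60.5, 58.3 and 61.3 CPM and 69.4, 71.1 and 67.1 CPM. None was called by edgeR (0.14, -0.01 and 0.21, adjusted p = 0.382, 0.967 and 0.153), and the groups were apart for Ncoa1 and Ncoa3. Ncoa3 passed the threshold with all 12 libraries in the fit (adjusted p = 0.0421). The standard errors of these values, 0.09, 0.08 and 0.08, set the size of change that could be seen.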

How the data were processed

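RNA-seq of the 6 libraries of 4 h was analysed from the raw read counts per gene that the authors deposited. Per the submitters' processing notes, HISAT2 2.0.5, featureCounts 1.5.0-p3, DESeq2 and the build GRCm39 were used; whether the library kit marked strand is not given in the sources used here. The deposited FPKM values served for limma-trend alternatives on log2(FPKM + pseudocount 0.5 or 0.1), for a minimum mean FPKM of 1 in naming genes and for marker sums. Per the file headers, the tables also hold the authors' log2 fold changes and p-values and a normalized count signal, which were used only to count the authors' calls or not at all.

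Counts were tested with edgeR 4.0.16 (R 4.3.3, limma 3.58.1) by the quasi-likelihood test with robust estimates, TMM scaling, the default low-count filter and no replicate block. Adjusted p-values are Benjamini-Hochberg values over all genes tested, two-sided, and a call is an adjusted p under 0.05. The 24 h response was fitted likewise and the difference between times as an interaction on 12 libraries. CPM values are TMM-scaled within a time, n = 3 per group. The procedure was tested on simulated data. DESeq2 1.42.0 and other settings were alternatives.

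The members, gene lists and rules were chosen with earlier results of these data known. Genes were named by a rule of size: the 15 largest rises and falls, the 4 largest called members of each list, the 10 largest rises and falls at 4 h alone, the 5 largest of noncoding genes, and a few whatever their result. It took 204 genes, 196 of them called; values are printed mainly for those among the 110 whose call held in every alternative. Others were named as family members or after their values were seen, and were recomputed under the same alternatives. A few genes and gene lists are not reported here.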

Additional observations from a re-analysis of the deposited data

Results flagged for a closer look

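The difference between the 4 h and the 24 h response is given for 20 genes that were called at 4 h alone and named by size. A called difference in edgeR's interaction test on all 12 libraries is part of that definition, so the values are a description and not a further result. Each value is the 24 h minus the 4 h log2 response. Among genes that rose at 4 h, the secreted peptide gene Adm had -2.54, the pseudogene Gm6741 -2.76, the potassium channel subunit gene Kcne4 -2.29 and the prostacyclin receptor gene Ptgir -1.66. The values were -1.37 for Prag1, -1.13 for Nes, -1.07 for Gm10167, -1.05 for Ddit4l, -0.47 for Them6 and -0.43 for Ksr1.

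Among genes that fell at 4 h, Rgs16 had 2.10, Tiparp 1.77, Pbp2 1.38, Shc4 1.27, Nat2 1.15 and Msmo1 1.02. The values were 0.90 for Errfi1 and 0.73 for each of Dusp6, Vstm5 and Zfp442. Of these 20 genes, the 4 h call of Adm, Ddit4l, Ksr1, Nes, Prag1, Dusp6, Errfi1, Shc4, Tiparp, Msmo1 and Rgs16 held in all 15 alternatives, and that of the rest ended in at least 1. At 24 h the libraries may differ from those at 4 h in more than time, since levels in vehicle also differed between the times, and this was not tested.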

How the results depend on the processing

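edgeR called 1098 genes at 4 h. A fit that takes the replicate number as a block gave 1953 calls, one over all 12 libraries gave 2198, and the count was 443 to 1760 with 1 library left out. DESeq2 size factors (1110), library totals (1242), DESeq2 (1448), no low-count filter (1558), at least 10 counts in each library of a group (1115) and limma-trend on FPKM values (803 and 800) stayed within 1.5 times. The authors' deposited table called 1419 genes, of which 1056 were shared. Deviations from the group means correlated between equally numbered vehicle and treated libraries with r = 0.088, 0.083 and 0.109, and each library correlated best with its own number, which is a hint from the data and not the design. The labels do not say what a shared number means, so the block was kept as an alternative.

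The count of genes called at 4 h alone was 89, 24 with an adjusted p under 0.01 at 4 h, and 21 to 150 with 1 library left out; library totals gave 109. The difference between the times was called in 8796 genes and in 8114 to 9120 across its alternatives. No gene named by size reversed its direction in any alternative. Of 196 such genes called, 110 kept the call in each. With 3 libraries a group, and 1 dose, small changes could be missed.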
